A study of Mus musculus with 122 samples.

Results

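CTCF was depleted without any replacement protein in the mouse embryonic stem cell line called CLC, and the expression of its genes was compared between 2 depleted libraries (CLC I) and 2 untreated libraries (CLC U). These 4 libraries were taken by their labels and column names, out of 38 RNA-seq libraries and 122 samples in the whole series. E14Tg2a embryonic stem cells were the parent of the line, and all groups shared both Ctcf alleles fused to an auxin-inducible degron and eGFP, a TIR1 gene at Rosa26 driven by the constitutive pCAGGS promoter, and a homozygous transgene at Tigre that doxycycline (Dox) induces. The transgene encodes CLC, a FLAG and mRuby2 tagged protein with the N and C termini of CTCF around the zinc fingers of CTCFL. It was not induced in U or I. CLC U received neither drug, CLC I received 500 µM indole-3-acetic acid (IAA, auxin), CLC D received Dox and CLC ID received both, with 2 libraries in each. The labels of the treated libraries give a time point of 24 h while the treatment protocol gives 2 days, and which is right could not be settled. Cells were grown without feeders in serum with LIF and inhibitors of GSK3 and MEK. The transgenic lines were expanded from single colonies, so the comparison describes 1 clone, and nothing in the labels says that the replicates came from separate cultures. The p values measure only the spread between these libraries, which may be technical.

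CTCF is a zinc finger protein that binds a long DNA motif, stops the cohesin complex as it extrudes chromatin loops, and thereby sets many boundaries of chromatin domains. It also binds close to many promoters, some of them far from the enhancers that act on them. In the degron system, auxin bridges the tagged protein to TIR1, and the tagged protein is degraded while its mRNA is not targeted. Embryonic stem cells tolerate the loss for some days, and the question of the comparison is which genes change when CTCF is gone and no zinc finger protein takes its place.

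The values are gene counts divided by 1 size factor per library, called normalized read counts here. Whole reads could be recovered from them, with 26349345 to 36822321 reads in the U libraries and 31086684 to 31800523 in the I libraries. The sum of normalized read counts was lower in I (27805252 and 28173276) than in U (31084406 and 31259129). The U libraries were nearly alike, with a Pearson r of 0.995 across genes on the log2 scale, whereas the I libraries had an r of 0.982. Replicate 2 of I stood farther from both U libraries (r of 0.940 each) than replicate 1 did (r of 0.953 each). Between the I libraries, 6.14% of the genes tested differed by more than 1 on the log2 scale, compared to 2.00% between the U libraries. The column names of the CLC and LCL libraries carry the tag 2i, which those of the CTCF and CTCFL lines lack. What the tag stands for is not stated, and a line and any batch of its libraries cannot be told apart.

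Ctcf itself, whose mRNA the degron does not target, had normalized read counts of 8460.3 and 8319 in U and 7314 and 5586 in I. The log2 fold change was -0.39 ± 0.124 (SE), which did not pass the test (limma adjusted p 0.0312), so the RNA carries no check of the depletion and the files used here hold no protein measurement. Ctcfl, whose zinc fingers the transgene carries, was at 41.4 and 42.7 in U and 81.4 and 82.4 in I (log2 fold change 0.95, not called), against 1791 and 1829 in D and 3441 and 2544 in ID. The transgene was therefore not seen at its induced level in either U or I. Markers of embryonic stem cells were high in all 4 libraries, as Nanog was at 46539 and 46838 in U and 38774 and 36725 in I, and none of the 26 markers of naive pluripotency was at 0. Most listed markers of other cell types had reads, and those at 0 in all 4 libraries were 1 of 14 of primitive endoderm (Ttr), 1 of 10 of mesoderm (Mesp1), 2 of 12 of neural cells (Dcx and Olig2) and 2 of 9 of fibroblasts (Lum and S100a4). Summed over each list, neural markers had 6773 to 6946 normalized reads in U and 5912 to 6947 in I, and fibroblast markers 4535 to 4539 in U and 3978 to 4843 in I.

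Many genes differed between CLC I and CLC U, in both directions. All lines of the series carry the degron, so effects of CTCF loss and of IAA itself cannot be told apart in this comparison. A gene was called when its adjusted p from limma, fitted on log2(normalized read count + 1) over the 4 CLC groups, was under 0.01 and its log2 fold change was above 1 or below -1. Of 15337 genes tested, 1027 were higher in I and 935 were lower, so that 12.8% were called. The rises exceeded 2 on the log2 scale for 282 genes and the falls for 299. The values of U and I did not overlap for any called gene, which is no separate support, since the thresholds favor genes without overlap. The fold changes understate those of genes with low counts because of the added 1. Without replicate 1 of U the count was 1227, without replicate 2 of U it was 1214, and 991 genes kept their call whichever U or I library was left out (483 higher, 508 lower).

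The genes with the greatest rises among those with a mean of at least 50 included several that epidermis, immune cells or neural precursors are known to express. Dmkn, which encodes the secreted epidermal protein dermokine, had 5.91 and 16.6 normalized reads in U and 258 and 249 in I (log2 fold change 4.53 ± 0.489, limma adjusted p 0.000184). Lbx1, a homeobox gene of muscle and spinal cord precursors, went from 10.97 and 9.49 to 193 and 185 (4.09 ± 0.225, limma adjusted p 9.72e-06). Oas1e, of the 2',5'-oligoadenylate synthetase family, went from 10.97 and 11.9 to 202 and 226 (4.11 ± 0.386, limma adjusted p 9.3e-05). In each of these genes both I libraries were more than 10 times above both U libraries. Ltb4r1, a leukotriene receptor gene, rose by 4.24 ± 0.542 on the log2 scale and Cda, the cytidine deaminase gene, by 4.07 ± 0.557. Osgin1, Dusp13, Micall2, Dusp8, Sbsn, Nipal4 and the uncharacterized Gm32585 completed the 12, with log2 fold changes between 3.74 and 4.06. The call of Sbsn was lost without any 1 of the U or I libraries and that of Micall2 when U and I alone were fitted.

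The genes with the greatest falls were of another kind, as most extend over very long stretches of the genome. Gpc6, a glypican gene of 1051 kb on chromosome 14 (116925315 to 117976544, GRCm38), had 79.4 and 84.2 normalized reads in U and none in I, a fall of at least 30.5-fold when 3 reads per library are taken as the limit. Dab1, an adaptor of reelin signaling that spans 1125 kb on chromosome 4 (103619359 to 104744844), went from 98.8 and 86.6 to 0.89 and 1.77 (log2 fold change -5.35 ± 0.445, limma adjusted p 5.19e-05). Itga9, an integrin gene of 294 kb, went from 225 and 238 to 5.37 and 3.54 (-5.43 ± 0.34, limma adjusted p 1.61e-05). The I libraries were near or at 0 in all of these. Enox1, Map3k15, Scn3a, Dner, Pde3a, Ube2cbp, Cc2d2a and 2310003L06Rik fell, with log2 fold changes between -5.18 and -4.22. Of these, 2310003L06Rik and Cc2d2a lost their call without either U library, and Dner lost it without replicate 1 of U and when U and I alone were fitted. The twelfth gene was the short Spry4, of the ERK pathway.

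**Figure D1:**
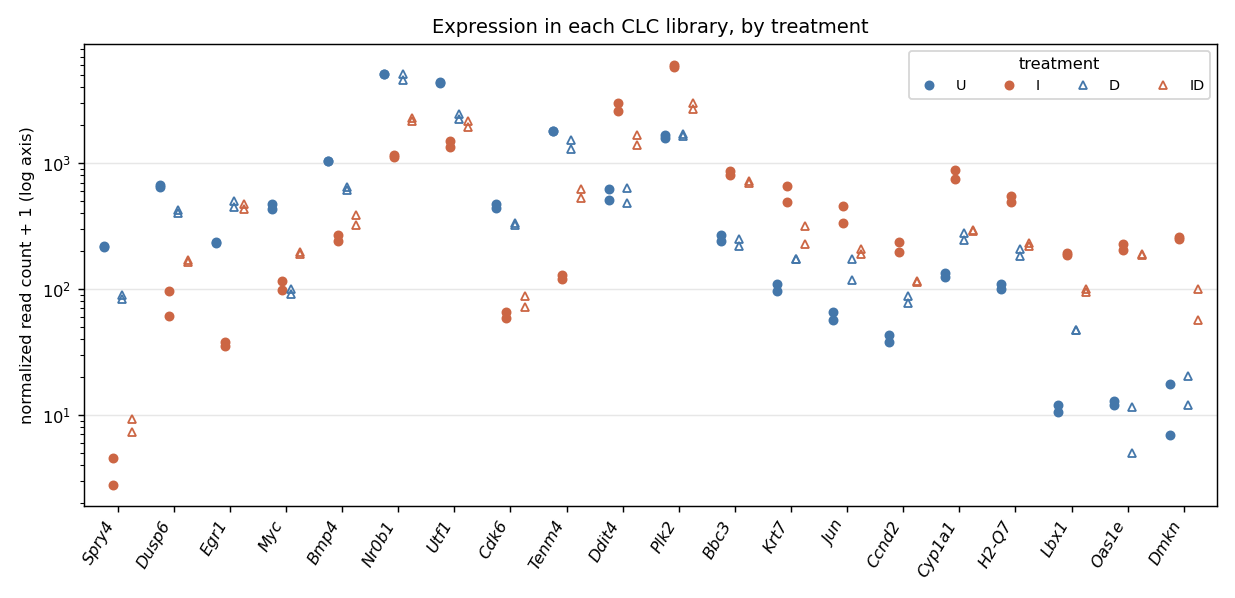
Normalized read counts plus 1 (vertical log axis) of 20 genes (horizontal axis) in each of the 8 CLC libraries, with filled circles for U (blue) and I (orange) and open triangles for D (blue) and ID (orange), 2 libraries a group. For every gene shown the 2 U circles lie apart from the 2 I circles, while for Egr1 the D triangles, at 502 and 450, lie among the ID triangles, at 428 and 468.

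Spry4, Dusp6 and Egr1, which the ERK pathway induces, and the 3 MYC genes were lower in I, while the genes of the transcription factors Jun, Fos and Atf3 were higher. Growth factor signals activate ERK, which switches on immediate early genes such as Egr1 and Fos, and feedback inhibitors such as the sprouty and dual specificity phosphatase genes. Of 22 genes of this list that were tested, 3 rose and 6 fell (40.9% called, compared to 12.8% over all genes). The median log2 fold change of the list was -0.45, compared to 0.005 over all genes tested. Spry4, which encodes an inhibitor of receptor signaling, had 218 and 214 normalized reads in U and 1.79 and 3.54 in I (log2 fold change -5.93 ± 0.357, limma adjusted p 1.43e-05). Dusp6, the phosphatase of ERK, went from 643 and 663 to 94.8 and 60.2 (-3.09 ± 0.201, limma adjusted p 1.84e-05). Egr1, a zinc finger transcription factor, went from 236 and 231 to 33.99 and 37.2 (-2.68 ± 0.144, limma adjusted p 8.94e-06). In each of these genes the U libraries nearly coincided and every I library was under them. Myc, the proto-oncogene of growth and metabolism, fell from 469 and 431 to 96.6 and 114 (-2.09 ± 0.158), Mycn fell by 1.13 ± 0.081 and Mycl fell by 1.21 ± 0.164 on the log2 scale, the last not called without replicate 2 of I. The AP-1 gene Jun rose from 64.2 and 55.8 to 332 and 457 (log2 fold change 2.68 ± 0.233, limma adjusted p 6.25e-05), Atf3, which stress induces, by 1.71 ± 0.239, and Fos by 1.24 ± 0.13. Over all 22 dual specificity phosphatase genes tested, counted after their values were seen, 4 rose and 2 fell (27.3% called), with a median log2 fold change of 0.41. The medium held an inhibitor of MEK, the kinase above ERK, in all groups.

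Among genes of naive pluripotency, 6 of 26 fell and 1 rose (26.9% called, compared to 12.8% over all genes). The core factors stayed within the threshold. Nr0b1, which encodes the nuclear receptor Dax1, had 5047 and 5089 normalized reads in U and 1149 and 1125 in I (log2 fold change -2.16 ± 0.085, limma adjusted p 3.84e-06). Utf1, a chromatin protein of pluripotent cells, went from 4391 and 4321 to 1329 and 1481 (-1.63 ± 0.098). Lin28a, an inhibitor of let-7 maturation, Prdm14 and Tcl1 fell by between 1.17 and 1.29 on the log2 scale. Dppa3, of the germline and of naive cells, rose from 1589 and 1651 to 4184 and 5320 (1.54 ± 0.116). For the other markers the changes were smaller, with log2 fold changes of -0.35 for Pou5f1, -0.31 for Nanog, -0.63 for Sox2, -0.91 for Esrrb and -0.69 for Zfp42, none of which was called. The median over the list was -0.51. Of the 10 primed markers tested, Cldn6 rose (1.47 ± 0.108) and Zic2 fell (-1.31 ± 0.088).

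Bmp4 and Inhbb were the listed genes of Nodal, TGF-beta and BMP signaling called lower in I. Bmp4, the ligand that sustains self-renewal and patterns the embryo, went from 1038 and 1027 to 239.7 and 269 (log2 fold change -2.02 ± 0.125, limma adjusted p 1.58e-05), and Inhbb, which encodes an activin subunit, fell from 321 and 357 to 74.2 and 103 (-1.94 ± 0.224). They belong to a list of 22 Nodal, TGF-beta and BMP genes tested, of which 2 rose and 2 fell (18.2% called, compared to 12.8% over all genes). Id2, an inhibitor of helix-loop-helix factors, rose by 1.18 ± 0.207, a call that was lost without either U library. Of 24 glycolysis genes, 3 fell and none rose, with a median log2 fold change of -0.45, and the 12.5% called was near the 12.8% over all genes. These were Slc2a1, the glucose transporter (from 6178 and 6269 to 2668 and 2684, log2 fold change -1.22 ± 0.077), Pdk1, which holds back pyruvate oxidation (-1.65 ± 0.101), and Pgk1, a glycolytic kinase (-1.03 ± 0.113), which lost its call without replicate 1 of I and with edgeR. Of 18 Notch genes, Jag2 and Nrarp rose (11.1% called, again near the share over all genes), by 1.19 each on the log2 scale, and the call of Nrarp did not hold without either U library or replicate 1 of I, nor with U and I alone in the fit.

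Targets of p53 moved in 1 direction where they were called. p53 is the transcription factor that damage and other stress stabilize, and its targets arrest the cell cycle or start apoptosis. Of 25 tested, 10 rose and none fell, with a median log2 fold change of 0.72. The share called was larger than the 12.8% over all genes. Ddit4, an inhibitor of mTORC1, had 623 and 504 normalized reads in U and 2586 and 2991 in I (log2 fold change 2.31 ± 0.167, limma adjusted p 2.79e-05). Plk2, a polo-like kinase gene, rose from 1569 and 1662 to 6001 and 5780 (1.87 ± 0.086, limma adjusted p 5.15e-06). Bbc3, which encodes the apoptosis protein PUMA, rose from 266 and 237 to 800 and 858 (1.72 ± 0.124, limma adjusted p 2.79e-05). For all 3 the lowest I library was more than 2 times above the highest U library. Phlda3, Btg2, Gdf15, Dcxr, Pmaip1, Perp and Tnfrsf10b rose by between 1.06 and 1.55 on the log2 scale, and of these Gdf15 lost its call without replicate 1 of U and Tnfrsf10b without replicate 1 of I. Outside the list, Gadd45g, a growth arrest gene that the study discusses, rose from 26.2 and 13.1 to 85.0 and 97.5 (2.24 ± 0.337). The other 15 p53 targets tested were not called.

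Of 31 cell cycle genes, 3 rose and 2 fell, with a median log2 fold change of -0.41. The share called, 16.1%, was near the 12.8% over all genes and is no result about the list. Cdkn2b, which encodes p15, went from 70.1 and 49.8 to 286 and 438 (log2 fold change 2.56 ± 0.31, limma adjusted p 0.000324), and Cdkn1c, the imprinted gene of p57, from 239.8 and 228 to 696 and 832 (1.70 ± 0.151). Ccnd2, a D-type cyclin gene, rose from 42.2 and 36.8 to 235 and 196 (2.42 ± 0.197). The kinase gene Cdk6, which spans 189.5 kb, fell from 438 and 472 to 64.4 and 57.6 (-2.88 ± 0.166, limma adjusted p 1.22e-05), and Bub1, of the spindle checkpoint, fell by 1.11 ± 0.153, which was not called without replicate 2 of I. Of 25 stress genes, Hspa1a, a heat shock gene, and Gadd45g rose while Chac1, of the amino acid response, fell by 1.72 ± 0.274, a call that was lost without either U library. The share of stress genes called was likewise near the 12.8% over all genes and is no result about that list.

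Among markers of trophoblast, 3 keratin genes, Plet1 and Hand1 were higher in I. Of 10 trophoblast markers tested, 5 rose and none fell (50.0% called, compared to 12.8% over all genes), with a median log2 fold change of 1.45. Krt7 had 108 and 96.1 normalized reads in U and 485 and 659 in I (log2 fold change 2.46 ± 0.206, limma adjusted p 5.28e-05). Krt18, a keratin of simple epithelia, Plet1, a surface protein of epithelial progenitors, and Hand1, a helix-loop-helix factor of trophoblast and heart, rose by 1.499 ± 0.136, 1.41 ± 0.118 and 1.90 ± 0.242. Krt19 rose by 2.00 ± 0.383, from 23.6 and 42.7 to 93.0 and 182.5, and lost its call without replicate 1 of U or replicate 2 of I. Over all 13 keratin genes tested, counted after their values were seen, 4 rose (30.8% called) and the median log2 fold change was 0.30. The summed level of the 12 markers was 5875 to 5991 in U and 9201 to 9808 in I. Among the 10 primitive endoderm markers tested, Gata6 and Dab2 rose while Col4a1, Col4a2 and Lama1, genes of the basement membrane, fell by between 1.27 and 1.66 (50.0% called). Dab2 was not called without replicate 1 of U or replicate 2 of I. The summed primitive endoderm level was 24439 to 24575 in U and 25773 to 26676 in I. Hand1 was also the 1 gene called among 6 of mesoderm (16.7% called), and Col1a1 rose among 3 fibroblast genes tested (1.95 ± 0.183, 33.3% called). Among 8 neural genes Rbfox3 rose and Map2 and Sox1 fell (37.5% called), and the call of Rbfox3 was lost without replicate 2 of U. Whether fewer cells of a type or less RNA per cell lies behind such a change cannot be told apart in bulk libraries, and a part of other cell types in these results was not tested.

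Some neighbouring members of gene families rose together, which was noticed after the values were seen. On chromosome 17 the neighbouring class I histocompatibility genes H2-Q4, H2-Q6, H2-Q7 and H2-Q10 were all higher in I. H2-Q7 had 99.6 and 109 normalized reads in U and 490.2 and 549 in I (log2 fold change 2.30 ± 0.147, limma adjusted p 1.68e-05), and the others rose by between 1.502 and 2.73. H2-Q4 was not called without either U library. On chromosome 5, Oas3, Oas1e and Oas1c rose by 1.69 ± 0.249, 4.11 ± 0.386 and 2.08 ± 0.159, and on chromosome 1 the aldehyde oxidase genes Aox1, Aox3 and Aox4 rose by 1.72 ± 0.379, 2.00 ± 0.159 and 2.16 ± 0.273. The call of Aox1 was lost when any 1 library was left out. Of 13 genes tested whose names start with H2-Q, H2-T, H2-K, H2-D or H2-M, 8 rose, as did 3 of 11 Oas genes, and none fell. Over all genes 6.70% rose. The H2 set was taken by name and may hold genes that are not class I. Members of each family are similar in sequence, and how the counting assigned reads between them is not stated, so the split within a family is uncertain. The same holds for Usp17la, Usp17lb and Usp17le, the 3 called of 5 genes tested in a list of the two-cell stage, whose summed level over 22 genes was 38.8 to 53.4 in U and 300.5 to 348 in I. Usp17lb lost its call without either U library or replicate 2 of I, and Usp17le without replicate 1 of U or either I library.

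Targets of the aryl hydrocarbon receptor, a ligand-activated factor that senses indole compounds and xenobiotics, gave 2 rises among 9 genes tested (22.2% called, compared to 12.8% over all genes). Cyp1a1, its best known target, went from 124 and 132 in U to 878 and 747 in I (log2 fold change 2.65 ± 0.137, limma adjusted p 8.37e-06). Cyp1b1 went from 37.1 and 20.2 to 148 and 90.4 (2.04 ± 0.468), and its call was lost without either U library, without replicate 1 of I and when U and I alone were fitted. In cells that also received Dox, Cyp1a1 was at 275 and 245 in D and 293 and 288 in ID, so that groups with and without auxin differed by 0.16 ± 0.137 there. The IAA effect on Cyp1a1 thus differed between cells with and without Dox (difference -2.49 ± 0.194, limma adjusted p 0.000349).

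Of 29 germline and meiosis genes tested, 4 rose and 3 fell (24.1% called, compared to 12.8% over all genes), with a median log2 fold change of 0.01. Stra8, the gene that retinoic acid induces before meiosis, had 1398 and 1388 normalized reads in U and 4183 and 5329.8 in I (log2 fold change 1.76 ± 0.12, limma adjusted p 2.28e-05). Rec8, the meiotic cohesin subunit, went from 346 and 373 to 1219 and 1531 (1.93 ± 0.131). Syce1 of the synaptonemal complex rose by 1.09 ± 0.119 and Tex101 by 1.34 ± 0.186. The meiotic cohesin genes Smc1b and Stag3 fell by 1.25 ± 0.16 and 1.03 ± 0.096, and Tex11 fell by 1.18 ± 0.145, so cohesin subunits of meiosis moved in both directions. The calls of Syce1 and Stag3 did not hold without replicate 2 of I, nor that of Tex101 without replicate 2 of U. Of 25 genes of CTCF and cohesin themselves, Pds5a alone was called (4.0%, compared to 12.8% over all genes), with 4730 and 4762 reads in U and 2942 and 1856 in I. Its log2 fold change of -1.02 lay just past the threshold and was not called without either U library or replicate 2 of I, nor with TMM, edgeR, DESeq2 or U and I alone in the fit. Without replicate 1 of I, 5 genes of this list were lower.

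Imprinted genes, Hox genes and clustered protocadherins are textbook examples of CTCF-dependent loci. Of 31 imprinted genes tested, Cdkn1c, Dlk1 and Nnat rose and Grb10, Sgce and Sfmbt2 fell (19.4% called, compared to 12.8% over all genes), and only Cdkn1c kept its call whichever library was left out. Igf2, whose imprinting rests on CTCF sites beside H19, was at 219 and 174 in U and 402.5 and 319 in I (log2 fold change 0.87 ± 0.188), under the fold threshold. Of 21 Hox genes, Hoxb13, Hoxc9, Hoxc13 and Hoxd9 rose and Hoxd13 fell (23.8% called). Hoxc13, the one Hox gene that kept its call with each library left out, went from 229 and 234 to 540.2 and 608 (1.31 ± 0.124). Of 57 clustered protocadherin genes in the table only 7 were expressed enough to test, and 3 of these fell (42.9% called). Pcdhga11 went from 62.5 and 61.7 to 7.16 and 1.77 (-3.73 ± 0.572), and Pcdhga2 and Pcdhga12 had log2 fold changes of -3.86 ± 0.737 and -2.12 ± 0.396, but all 3 calls were lost without either U library. These genes share their last exons, and reads there cannot be split between them.

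None of the 16 genes of DNA methylation was called by limma, edgeR or DESeq2, while 8 had an unadjusted p under 0.05 with each tool, and without replicate 1 of I 2 of them, Tet1 and Tet2, were lower. Among the 18 genes tested of those the study discusses, Stra8, Gadd45g and Adamts15 rose and Egr1 fell (22.2% called, compared to 12.8% over all genes). Adamts15, of a family of matrix proteases, went from 33.8 and 27.3 to 85.0 and 78.9 (1.40 ± 0.224), and its call was lost without replicate 2 of U. Those not called included Bhlhe40, Klf10, Tgfb1, Magee1, Gadd45b, Dll1 and Igf2, with log2 fold changes from -0.87 for Magee1 to 1.59 for Dll1. The study chose these genes on samples of this series that include CLC U, but its list of experiments gives no RNA-seq of CLC I. The genes are not independent evidence of a direction.

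**Figure D2:**
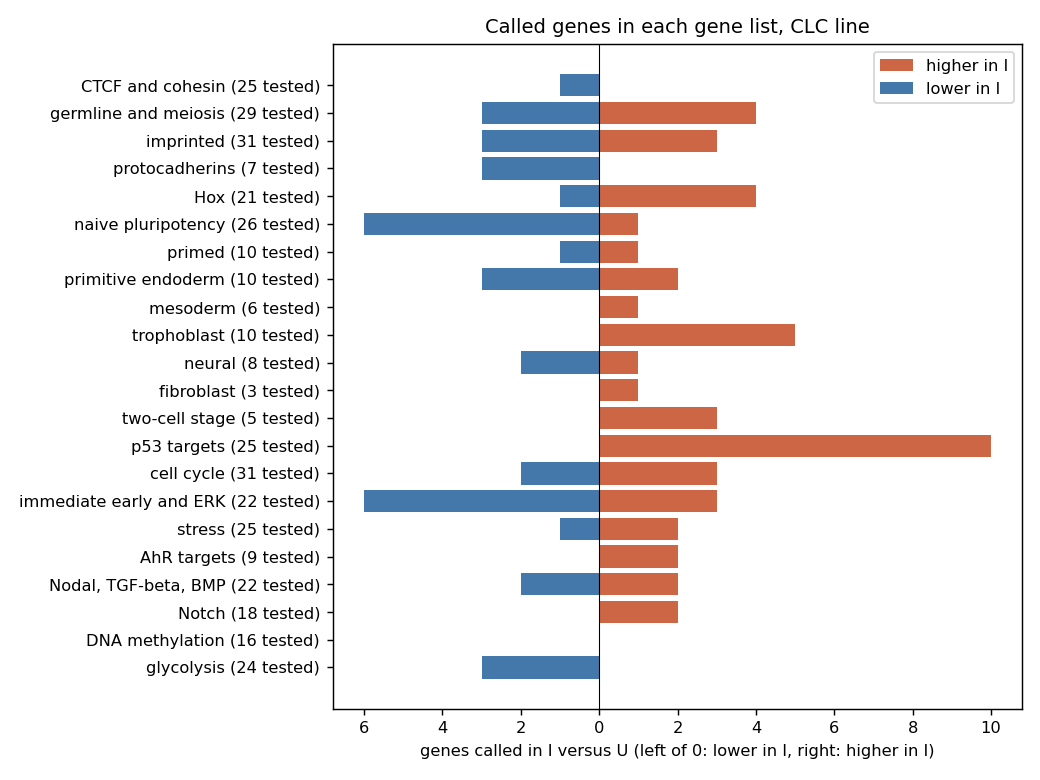
Number of genes called in I versus U of CLC in each of 22 lists (horizontal axis, bars to the left for genes lower in I and to the right for genes higher in I), with the number of tested genes in brackets. The longest bar is that of the p53 targets, with 10 rises and no fall, and the lists of naive pluripotency and of immediate early and ERK genes have 6 falls each. Over all genes tested 12.8% were called.

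The span of a gene went with the direction of its change. A position was found for 14988 of the tested genes, and the median span was 121 kb for genes that fell, 13.9 kb for genes that rose and 20.6 kb over all genes. Of the 621 genes over 200 kb, 302 fell (48.6%) and 5 rose, with a median log2 fold change of -1.27. Between 100 and 200 kb 18.4% of 1138 genes fell, and between 50 and 100 kb 6.86% of 1997 did. Below 25 kb each class had between 1.875% and 2.33% of genes lower in I and between 7.39% and 10.005% higher. The shift was present in both I libraries, as the median log2 difference from the mean of U over genes above 200 kb was -1.18 in replicate 1 and -1.37 in replicate 2. The I libraries also differed from each other by span, with a median log2 difference of replicate 2 from replicate 1 of 0.24 for genes under 5 kb and -0.23 for genes over 200 kb, while the U libraries differed by 0.015 or less in every class. The part of RNA quality in this pattern was not tested.

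The pattern by span was not particular to the CLC line. In I versus U of the LCL, CTCF and CTCFL lines, 49.3%, 55.9% and 67.6% of the genes over 200 kb were lower in I, with median log2 fold changes of -1.19, -1.23 and -1.62. With Dox present, the median of ID minus D in CLC was -0.54 for these genes and between -0.06 and 0.04 in each shorter class. Tenm4, a teneurin gene of 740 kb on chromosome 7 (96171246 to 96911093), had 1810 and 1791 normalized reads in U, 129 and 120 in I, 1523 and 1295 in D and 524 and 617 in ID. Immp2l, which encodes a mitochondrial peptidase subunit over 931.5 kb on chromosome 12, went from 114 and 148 to 8.94 and 9.75 without Dox and from 233 and 271.5 to 10.5 and 12.8 with it. The first gene kept a part of its level with Dox and the second did not.

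**Figure D3:**
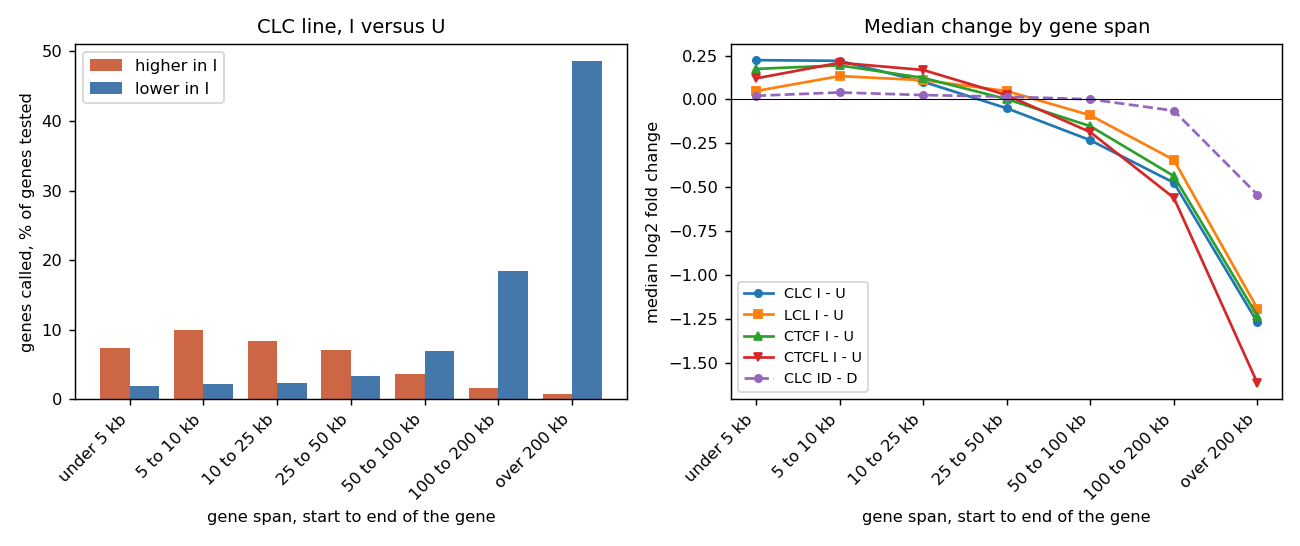
Left, percentage of tested genes called higher (orange) or lower (blue) in I of CLC, by gene span in 7 classes. Right, median log2 fold change in the same classes for I minus U in the CLC, LCL, CTCF and CTCFL lines and for ID minus D in CLC (dashed), where all 5 lines of the plot are lowest for genes over 200 kb.

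A CTCF site at a promoter was found for a larger share of called genes, in both directions, than of genes not called. CTCF sites were taken from FLAG ChIP-seq of CTCF restored in depleted cells of the CTCF line (CTCF ID), where the replicates had 38919 and 31736 peaks after merging and 30317 sites had a peak in both. A site lay within 3 kb of a start site for 39.8% of 1006 genes that rose, 38.8% of 921 that fell and 29.3% of 13061 that were not called. These are shares with no test, since genes are not independent. The shares also depend on span. Among genes under 25 kb a site was present for 37.7% of those that rose, 44.1% of those that fell and 26.9% of others, whereas among genes over 100 kb it was present for 35.8% of the 511 that fell and 35.9% of the 1225 not called. Few genes over 100 kb rose, and 13 of those 23 (56.5%) had a site.

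The sequences at some of these promoter sites show the core of the CTCF motif. The letters CAGNNGGC, a part of that motif, were searched on both strands within 50 bp of the summit, and 21.4% of the 30317 sites held them, compared to 6.23% of windows of the same length 1000 bp away. Of the 120 called genes named by list, size of change or line, 48 had a promoter site and 15 of those held the letters. Sites of 6 genes are shown, 3 of which rose and 3 of which fell, since they join the binding site to a measured change, 5′ to 3′ on the strand of the match in GRCm38, with the match in capitals.
Bbc3: tcactagccacCAGGGGGCgcgggcgagcc
Cdkn2b: ggccttaccggCAGAGGGCgcacgagcgcg
Gdf15: gtagccgccggCAGGGGGCgccgaagcgcg
Col4a1: tttttgaacacCAGGGGGCagcagactagg
Map3k15: gggggagccggCAGGGGGCgcccttggcgt
Mycl: ccgagggccacCAGGTGGCgcggtggaggt
The match near Bbc3 lies at chr7:16310116-16310145 on the minus strand, in an intron and 325 bases before the nearest annotated start. That near Cdkn2b lies at chr4:89310620-89310649 on the minus strand, in an intron and 405 bases after a start. The match near Gdf15 (chr8:70629885-70629914, minus strand) overlaps an exon, 2196 bases after a start. That near Col4a1 (chr8:11215453-11215482, minus strand) is in an intron, 1802 bases after an annotated start inside the gene. Col4a1 runs on the minus strand from 11312826 to 11198423, so this match is far from the first base of the gene. Those near Map3k15 (chrX:159988106-159988135) and Mycl (chr4:122995474-122995503) are on the plus strand and lie outside the gene, 313 and 164 bases before a start. A match is a description of the letters and says nothing of use.

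Some called genes lay next to each other. With 12.8% of the tested genes called, some pairs arise in any order, and their number was not computed. Of 14966 genes ordered along chromosomes 1 to 19 and X, 1925 were called, 303 adjacent pairs were both called, and 226 of these pairs moved in the same direction and 77 in opposite directions. In 49 places at least 3 consecutive tested genes were called. The longest had 5 genes, Rab12, Ptprm, Lama1, Arhgap28 and Epb41l3 on chromosome 17 (66494512 to 69289989), all lower in I by between 1.03 and 2.21 on the log2 scale. Rab12 was not called without replicate 2 of U or of I, nor Ptprm without either U library. Around Grb10 on chromosome 11 (11814101 to 12464960), 1700042O10Rik, Ddc, Grb10 and Cobl all fell, Cobl from 17391 and 17453 to 6598 and 5254 (-1.57 ± 0.117). On chromosome 11 (96099326 to 96197447), Calcoco2, Ttll6 and Hoxb13 rose together, Calcoco2 from 8853 and 8766 to 26297 and 33721 (1.76 ± 0.13). On chromosome 7 (30751471 to 30791097), the epidermal genes Sbsn, Dmkn and Krtdap rose, Krtdap from 66.7 and 81.9 to 595 and 1000.2 (3.37 ± 0.257), and on chromosome 17 (23675445 to 23684026) Tnfrsf12a and the claudin genes Cldn6 and Cldn9 rose. In these runs Grb10 lost its call without replicate 2 of U, and Hoxb13 and Cldn9 without either U library or replicate 2 of I. Jun, which rose, lay beside the lower Fggy, and Egr1, which fell, beside the higher Reep2.

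In the 3 other lines the same treatment was compared with untreated cells of the same line, and their transgenes were likewise not induced. In LCL I versus U 9.58% of genes were called (649 higher, 815 lower of 15274), in CTCF 10.9% (835 and 989 of 16705) and in CTCFL 9.58% (622 and 991 of 16840). The calls of CLC were found again more often for genes that fell. Of the genes that fell in CLC and were tested in both lines, 60.2% also fell in LCL, 61.7% in CTCF and 60.04% in CTCFL, which are 68.8%, 62.9% and 60.8% of the falls of those lines. Of the genes that rose, 41.9%, 35.2% and 27.96% also rose there, which are 65.6%, 52.6% and 55.8% of the rises of LCL, CTCF and CTCFL. At most 2 genes a line moved in the opposite direction. Among genes tested in all 4 lines, 383 of 892 falls of CLC were called in all the other lines, with a median span of 222 kb, compared to 127 of 995 rises, with a median span of 12.1 kb. The genes that fell in CLC and in no other line had a median span of 48.6 kb.

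**Figure D4:**
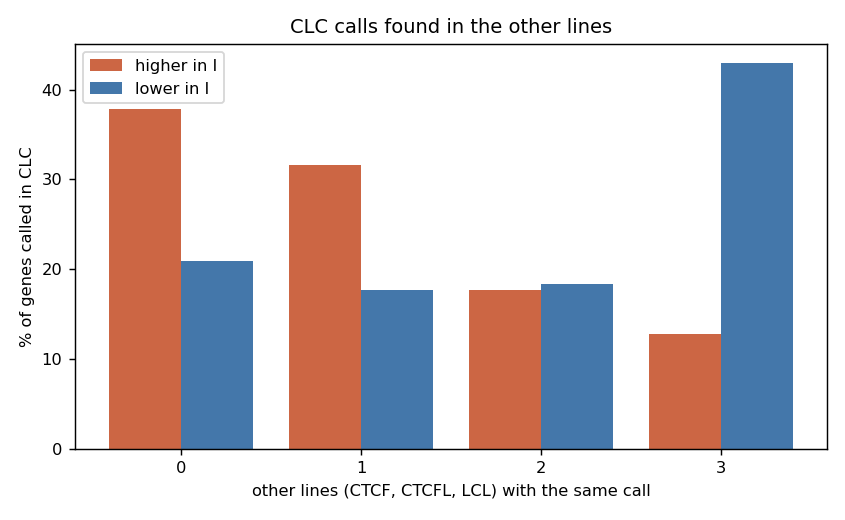
Percentage of the genes called in CLC I versus U (vertical axis) that had the same call in 0, 1, 2 or 3 of the other lines (horizontal axis), for 995 genes higher in I (orange) and 892 lower in I (blue). The blue bar is highest at 3 lines, with 42.9%, and the orange bar at 0 lines, with 37.9%.

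Among genes that had 1 direction in all lines, the 12 whose smallest change over the lines was greatest were 11 that fell and 1 that rose. Cdk14, Gpc6, Tenm4, Immp2l, Fam172a, Bnc2, Mob3b, Ube2cbp, Scn3a, Pcdhga11 and Cc2d2a fell, and all but Pcdhga11 and Cc2d2a span more than 100 kb. Cdk14, a kinase gene of 617 kb, had 45.6 and 47.5 normalized reads in U and 0 and 0.89 in I (log2 fold change -5.11 ± 0.559), with -3.77 in LCL, -4.91 in CTCF and -3.43 in CTCFL. Fam172a, which has a role in splicing, went from 504 and 459 to 48.3 and 35.4 (-3.51 ± 0.195), with values between -3.36 and -3.70 in the other lines. Cc2d2a, a gene of the base of cilia, went from 50.7 and 60.5 to 3.58 and 0, and over 78.6 kb it was the shortest of the falls. The uncharacterized Gm37933 rose from 4.22 and 9.49 to 86.8 and 80.6 (3.52 ± 0.423), with 3.54 to 4.85 in the other lines.

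Some of the responses differed between lines when the difference itself was tested in 1 fit over all lines. The IAA effect of CLC differed from that of CTCF in 2.93% of 16480 genes (351 higher in CLC, 132 lower), from that of CTCFL in 3.63% (400 and 198) and from that of LCL in 1.09% (150 and 29). The excess of genes higher in CLC depended on replicate 1 of I. Without that library the excess was smaller against CTCF, and it was gone against CTCFL and LCL. Egr1 fell in CLC and in LCL but was at 230 and 239 in U and 199 to 263 in I of the CTCF line, with a difference of -2.64 ± 0.254 between CLC and CTCF (limma adjusted p 1.33e-08). The difference between CLC and LCL for Egr1 was -0.59 ± 0.265 and did not pass. Myc rose in the CTCF line, from 70.2 and 51.9 in U to between 139 and 165 in I, and differed from CLC by -3.43 ± 0.352. Dusp6, Jun, Ccnd2, Ddit4, Gdf15, Atf3 and Gadd45g likewise had a different response in CLC than in both CTCF and CTCFL, and Ddit4, Atf3 and Gadd45g also than in LCL, where their differences were 1.58 ± 0.226, 1.73 ± 0.219 and 2.64 ± 0.318. For these genes the U levels were not alike, since Ddit4 was at 504 to 623 in U of CLC and 6102 to 7339 in U of CTCF. With only U and I of both lines in the fit, 196 genes differed from CTCF, 379 from CTCFL and 6 from LCL, and without replicate 1 of I 483 differed from LCL, 114 without replicate 1 of U, 97 without replicate 2 of U and 109 without replicate 2 of I.

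With Dox present the same auxin treatment changed fewer genes in CLC. In ID versus D 7.55% of the genes were called (614 higher, 544 lower), and the CLC protein was expressed in both of these groups. Of the 1027 genes that rose without Dox, 239 (23.3%) also rose with it and 16 fell, and of the 935 that fell, 285 (30.5%) also fell with it and 8 rose. The median log2 fold change of the former went from 1.59 to 0.62 and that of the latter from -1.58 to -0.65, where the choice of the genes raises the size of the first value of each pair. The effects of auxin differed in 6.08% of genes when tested directly. Of the genes that rose, 249 had a smaller change with Dox and 2 a larger one, and of those that fell 239 and 1. The choice of genes by their change without Dox leans these 4 counts to the smaller side. These counts depend on single libraries, as 164 genes differed without replicate 1 of U, 127 without replicate 2 of U and 1702 without replicate 1 of I, against 932 with all.

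Genes of the ERK list were among those that differed. Egr1 was at 502 and 450 in D and 428 and 468 in ID, a difference from the effect without Dox of 2.597 ± 0.203 (limma adjusted p 0.000349). Myc was at 98.8 and 91.0 in D and 194 and 188 in ID, a rise of 1.00 ± 0.158 where it fell without Dox. Dusp6 and Spry4 fell in both comparisons but less with Dox, by 1.30 and 3.37 on the log2 scale. Dusp8 went from 6.75 and 3.56 in U to 93.0 and 78.9 in I and from 93.0 and 85.5 in D to 22.6 and 30.1 in ID, so that its 2 effects had opposite signs (difference -5.60 ± 0.495, limma adjusted p 0.000502). In several of these genes it was the D level that stood apart from U, and not only the ID level from I.

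Among p53 targets, Bbc3, Btg2, Ddit4 and Gdf15 rose both without and with Dox, by 1.59 ± 0.124 for Bbc3 and 1.46 ± 0.167 for Ddit4 in ID versus D. Pmaip1, which encodes the apoptosis protein NOXA, rose from 432 and 410.5 to 1069.8 and 897 without Dox and fell from 599 and 809 to 297 and 340.0 with it (difference -2.34 ± 0.231, limma adjusted p 0.000715). Utf1 had a log2 fold change of -0.20 with Dox, whereas Nr0b1 and Lin28a fell again, by 1.14 and 1.17. Cdk6, Scn3a, Immp2l, Rec8, Cdkn2b and Oas1e were called in the same direction in both comparisons, and for none of these did the difference between the effects pass the test.

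**Figure D5:**
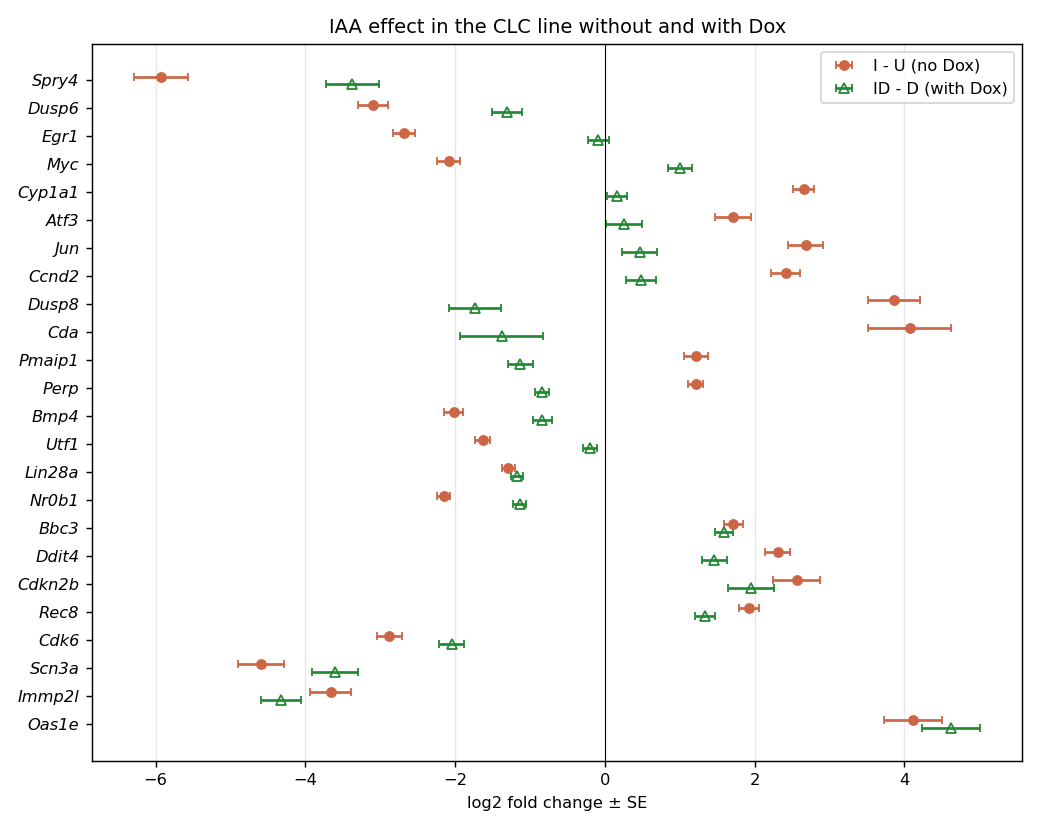
Log2 fold change with its SE (horizontal axis) of 24 genes in CLC for I minus U (orange circles) and ID minus D (green open triangles), 2 libraries a group. Cyp1a1 and Egr1 have triangles near 0 and circles beyond 2 in size, while for Bbc3 and Oas1e the triangle and circle lie close together.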

How the data were processed

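PolyA RNA was sequenced from the 8 libraries of the CLC line and from 30 of the other lines. The authors aligned reads to GRCm38 and deposited gene counts divided by 1 size factor per library, a normalized signal. Whole reads were recovered from their steps, with 100% of values up to 500 reads within 0.1 of a whole read. Because the values are not raw counts, limma 3.58.1 with a mean-variance trend (R 4.3.3) was fitted on log2(value + 1) for genes with a mean of at least 10, and genes beyond 1 on the log2 scale at a p of 0.01, adjusted by Benjamini-Hochberg, were called. One fit held U, I, D and ID of CLC, and differences between lines came from a fit over all 38 libraries. edgeR 4.0.16 and DESeq2 1.42.0 on the recovered reads, and leaving out each library, were alternatives. The fit was tested on simulated data. Peaks were deposited by the authors as MACS calls per sample, with a fold enrichment ratio and a −log10 q, and a site was a peak present in both replicates. Start sites and spans came from GENCODE vM21. Genes were named if called within a gene list, among the 12 greatest rises or falls with a mean of at least 50, called alike in all 4 lines, differing from at least 2 lines, discussed by the study, or in runs of at least 3 called neighbours. The members, lists and comparisons were chosen with earlier results of these data known. Some named genes are not reported here.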

Additional observations from a re-analysis of the deposited data

Results flagged for a closer look

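Differences between responses to IAA, tested directly, were found for 932 genes with against without Dox in CLC, and between CLC and the other lines for 483 genes (CTCF), 598 (CTCFL) and 179 (LCL). Among the named genes with the greatest such differences, the log2 fold change in CLC minus that in CTCF was 4.87 for Cyp26b1, 4.69 for Erich3 and 4.59 for Trim40, and -4.89 for Spry4, -4.71 for Tlx2, -3.3 for Gdap10, -3.03 for Cdh6 and -2.4 for Itga9. Against LCL it was 4.69 for E530011L22Rik, 4.53 for Cdhr2, 4.47 for Bcl11a and -4.9 for Gm16001. The last 4 had no reads in both libraries of U or of I in CLC, so their fitted differences depend on the value added before the logarithm. Those of other genes near 0 in a group depend on it too. In CLC, Erich3 was at 1.69 and 0 in U, Cyp26b1 at 0 and 1.19 in U and Cdh6 at 0.89 and 0 in I. Tlx2 was at 5.32 and 0 in U of the CTCF line. Against the limit of 3 reads per library, Cdhr2 was at least 8.12-fold higher in I, E530011L22Rik at least 2.88-fold and Bcl11a at least 1.75-fold, and Gm16001 was at least 3.53-fold lower.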

How the results depend on the processing

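With 2 libraries per group, counts moved with single libraries. Without 1 library the count of genes called in CLC I versus U ranged from 1214 to 2400 (reported 1962), that in ID versus D from 663 to 763 (reported 1158), that of the difference with and without Dox from 127 to 1702 (reported 932) and that of the difference between CLC and LCL from 97 to 483 (reported 179). With all 4 lines in 1 fit 1564 genes differed with and without Dox. With only U and I of both lines in the fit, 196 genes differed between CLC and CTCF, 379 between CLC and CTCFL and 6 between CLC and LCL. With a 1 kb window, genes that rose had a promoter CTCF site 4.25 percentage points more often than genes not called (reported 10.4). No named gene changed sign with a call, but the balance of higher and lower genes turned in some fits. In I versus U it went from 1027 and 935 to 1033 and 1367 without replicate 1 of I, 755 and 787 without replicate 2 of I and 786 and 810 at a minimum mean of 50. For the difference with Dox it went from 497 and 435 to 689 and 875 with all 4 lines in 1 fit, 453 and 463 with TMM, 455 and 462 with edgeR and 681 and 708 with DESeq2, and against LCL from 150 and 29 to 218 and 265 without replicate 1 of I. Replicate numbers were not seen to pair the samples (correlations of same-numbered deviations from -0.25 to 0.06), and with the replicate number as a block 897 genes were higher and 860 lower in I, and 513 differed with and without Dox. edgeR called 1065 higher and 865 lower, and DESeq2 1171 and 1002. Of the 263 named genes called in I versus U, 164 kept their call under every alternative run and 210 under those that left out no library. For the difference with and without Dox, fitting only the groups of the contrast is the fit reported. The causes of these shifts were not tested.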
